A study of Mus musculus with 6 samples.

Results

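Gas1 and 8 further genes of Hedgehog reception and response were examined in fibroadipogenic progenitors (FAPs), mesenchymal cells of the muscle interstitium that can become fibroblasts or adipocytes. The 9 genes were taken by name from a table of 33276 genes, and all 9 had reads in every library and entered the test of 20248 genes. They are the co-receptors Gas1, Boc and Cdon, the receptor Ptch1, the decoy receptor Hhip, the transducer Smo and the transcription factors Gli1, Gli2 and Gli3. The set was drawn up because Gas1 was among the few genes that passed the test between circulating and muscle FAPs, so the differences of all 9 between these groups are given as a description. The p-values printed for the 9 record the call that led to the choice and how it depends on settings and libraries, and nothing is supported with them. The first group was circulating FAPs from peripheral blood of mice in which the middle cerebral artery had been blocked (MCAO, an experimental stroke), and the second was FAPs from muscle of MCAO mice, with 3 RNA-seq libraries each. All 6 libraries thus came from occluded animals, the muscle was not named, and genetic background, age, sex, time after occlusion and sorting gate were not given in the labels used here. The labels do not say whether libraries of a group came from separate mice or from pools.

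In the Hedgehog pathway, a secreted ligand binds Ptch1 and so lifts the block that Ptch1 places on Smo, and Smo, acting in the primary cilium, switches Gli2 and Gli3 from repressors to activators of transcription. Gas1, Boc and Cdon bind the ligand together with Ptch1, while Ptch1, Hhip and Gli1 are themselves target genes that rise when the pathway is active. Mouse muscle FAPs carry cilia, and Hedgehog signalling through the cilium is known to restrain their turning into adipocytes. Gas1, growth arrest specific 1, is a membrane protein held by a lipid anchor that was first described in fibroblasts that had stopped dividing.

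The promoter windows of Gas1 and Cdon are shown because the co-receptor Gas1 differed between the groups while the libraries overlapped for the co-receptor Cdon. Both run 5′ to 3′ on the gene's strand, 300 bases that end shortly after the transcription start, from RefSeq on build GRCm38.p6, at chr13:60177486-60177785 on the minus strand and chr9:35451826-35452125 on the plus strand, and capitals mark the GC box GGGCGG on either strand.
Gas1: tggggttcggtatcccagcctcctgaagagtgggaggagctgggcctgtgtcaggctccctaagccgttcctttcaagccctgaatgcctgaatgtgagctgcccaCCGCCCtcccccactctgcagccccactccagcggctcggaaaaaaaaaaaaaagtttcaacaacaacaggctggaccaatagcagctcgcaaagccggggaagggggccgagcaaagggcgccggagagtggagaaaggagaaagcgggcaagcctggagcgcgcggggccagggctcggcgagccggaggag
Cdon: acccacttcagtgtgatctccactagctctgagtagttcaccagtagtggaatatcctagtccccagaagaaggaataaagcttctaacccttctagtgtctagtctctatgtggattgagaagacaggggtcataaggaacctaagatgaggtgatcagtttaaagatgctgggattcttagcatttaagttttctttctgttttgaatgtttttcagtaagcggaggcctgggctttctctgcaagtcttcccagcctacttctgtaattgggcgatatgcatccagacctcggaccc
The Gas1 window had 62.3% G and C with 17 CpG dinucleotides and 1 GC box, and the Cdon window 44.7% with 3 CpG and no GC box. The median window of 32851 in the table had 52.7% and 7 CpG, and 35.7% of windows held a GC box. Windows were found for 7 of the 9 genes, without Boc and Gli1, and 5 of the 7 held a GC box (Gas1, Gli2, Gli3, Hhip and Ptch1). G and C made up 76.3% for Ptch1 and 67.7% for Smo, whose groups overlapped in level as those of Cdon did. They made up 67.3% for Gli2, 71.0% for Gli3 and 73.7% for Hhip, whose groups did not overlap. A link between window sequence and the group differences was not tested. None of the 7 held the Gli site GACCACCCA on either strand, which 0.253% of all windows held, and none held TATAAA on either strand, which 13.6% held. The absence of these letters from a short window says nothing about binding elsewhere.

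The libraries differed in depth and make-up. Totals ran from 5522193 to 13813329 counts in circulating and from 17532558 to 23424039 counts in muscle libraries, and the table's 2 symbols of 18S ribosomal RNA, both included in the totals, took 43.0% to 60.1% of circulating and 27.8% to 32.3% of muscle counts. Levels are counts per 1000000 (CPM) of the library size scaled by the trimmed mean of M values (TMM). Pdgfra, the receptor that defines FAPs, was at 221, 191 and 193 CPM in circulating libraries 1, 2 and 3, and at 849, 456 and 526 CPM in muscle libraries 1, 2 and 3. The 7 FAP markers summed to between 9392 and 14870 CPM in circulating and between 23810 and 30160 CPM in muscle libraries, with none at 0. Of 10 further marker lists, 10 leukocyte markers summed to between 94.4 and 122 CPM in circulating and between 16.9 and 33.3 CPM in muscle libraries, and 4 smooth muscle and pericyte markers to between 43.5 and 51.8 CPM in circulating and between 62.8 and 111 CPM in muscle libraries. These 4 went both ways. Circulating means were lower than muscle means for Rgs5 (5.20 against 41.6 CPM) and Cspg4 (15.5 against 38.1). They were higher for Acta2 (13.3 against 7.36) and Myh11 (13.2 against 3.66), whose groups overlapped. The other 8 lists overlapped between the groups, and none of the 52 tested marker genes passed in edgeR. DESeq2 did call marker genes in both directions. Among them Pdgfra (DESeq2 adjusted p = 0.0260), Lum (0.0123), S100b (4.04e-07) and Rgs5 (0.000747) were lower in circulating libraries. Csf1r (0.0128) and Mkx (0.00759) were among those called higher there. Myod1 of the satellite cell list had no read in any muscle library. The part of these cell types, of depth and of 18S in the values of the Hedgehog genes was not tested. In bulk libraries, fewer cells of a type and less RNA per cell cannot be told apart.

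Gas1 fell in circulating FAPs, and among the other co-receptors Boc was also low there while Cdon was at about the same level in both groups under TMM scaling. Gas1 was at 85.8, 75.5 and 83.5 CPM in circulating libraries 1, 2 and 3, against 558, 366 and 536 CPM in muscle libraries 1, 2 and 3. Every circulating library lay under every muscle library, and the circulating libraries lay close together. The mean was 81.6 ± 5.43 CPM in circulating libraries and 487 ± 105 CPM in muscle libraries (SD, n = 3 each), a log2 fold change of -2.58 ± 0.35 (SE), or a level 5.97 times as high in muscle FAPs. This is the value for which Gas1 was chosen (adjusted p = 0.0341, quasi-likelihood test of edgeR with Benjamini-Hochberg adjustment over all genes). It had 567 to 1176 reads in circulating and 7210 to 10967 reads in muscle libraries. Gas1 did not pass without circulating replicate 2 (adjusted p = 0.0792), circulating replicate 3 (0.120), muscle replicate 1 (0.172), muscle replicate 2 (0.139) or muscle replicate 3 (0.202), although its log2 fold change stayed between -2.52 and -2.80 whichever library was left out. Over all settings tried its adjusted p ran from 3.48e-05 with DESeq2 to 0.202.

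Boc, an immunoglobulin superfamily co-receptor, was at 24.2, 5.59 and 18.2 CPM in circulating libraries 1, 2 and 3, against 98.6, 144 and 111 CPM in muscle libraries 1, 2 and 3. The groups did not overlap, and circulating replicate 2, with 42 reads, was lowest. Its log2 fold change was -2.88 ± 0.62, with a larger error than that of Gas1. Here and in what follows, ± stands for the SD of 3 libraries beside a level or share and for the SE beside a log2 fold change. Cdon, the close relative of Boc, was at 190, 139 and 88.8 CPM in circulating libraries 1, 2 and 3, against 120, 109 and 175 CPM in muscle libraries 1, 2 and 3. The groups overlapped widely, and the log2 fold change was 0.05 ± 0.43. With TMM factors taken from abundant genes alone (a mean of at least 20 CPM), a scaling that moved the median of all genes by 0.71, the values were -1.84 for Gas1, -2.26 for Boc and 0.77 for Cdon. Under it Gas1 did not pass (adjusted p = 0.0878 in edgeR).

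Ratios within a library do not depend on scaling. Per kilobase of exon, Gas1 made up 49.0%, 56.9% and 64.4% of the reads of the 3 co-receptors in circulating libraries 1, 2 and 3, against 83.3%, 72.7% and 79.2% in muscle libraries 1, 2 and 3. Cdon made up 41.8%, 40.3% and 26.3% in the circulating libraries, against 6.86%, 8.29% and 9.92% in the muscle libraries. The shares of both genes did not overlap between the groups. They rest on the Gas1 counts for which the genes were chosen, and a lower Gas1 raises the Cdon share by construction, so they describe the make-up of the libraries and are no second sign of a difference. Boc made up 2.80% to 9.35% in circulating and 9.80% to 19.0% in muscle libraries. There were 0.451, 0.541 and 0.939 Gas1 reads for each Cdon read in circulating libraries 1, 2 and 3, against 4.66, 3.37 and 3.06 in muscle libraries 1, 2 and 3.

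**Figure D1:**
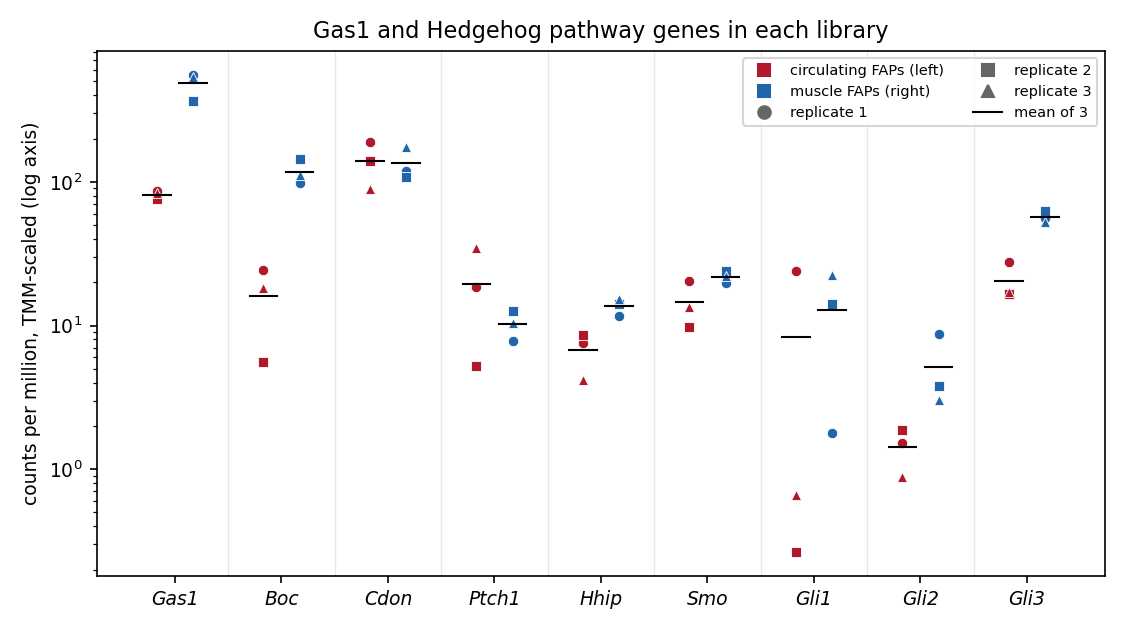
Level of each of the 9 genes in CPM on a log axis, with circulating libraries in red on the left and muscle libraries in blue on the right of each gene, symbols for replicates and a bar for the mean of 3. Gas1 lies between 75.5 and 85.8 CPM in circulating and between 366 and 558 CPM in muscle libraries, the Cdon groups overlap, and Gli1 spreads widely within both groups.

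Reads were also set against those of Pdgfra in the same library. As Pdgfra was itself lower in the circulating libraries, this ratio is raised there for every gene. Gas1 had 38.9, 39.4 and 43.2 reads per 100 Pdgfra reads in circulating libraries 1, 2 and 3, against 65.7, 80.3 and 102 in muscle libraries 1, 2 and 3. Cdon, whose CPM overlapped between the groups, had 86.2, 72.9 and 45.9 in the circulating libraries, against 14.1, 23.9 and 33.3 in the muscle libraries. Boc had 11.0, 2.92 and 9.43 in the circulating libraries, against 11.6, 31.6 and 21.2 in the muscle libraries, which did not overlap by a small margin. Gli3 had 10.1 ± 2.19 reads per 100 Pdgfra reads in circulating and 10.1 ± 3.55 in muscle libraries, and its groups overlapped.

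**Figure D2:**
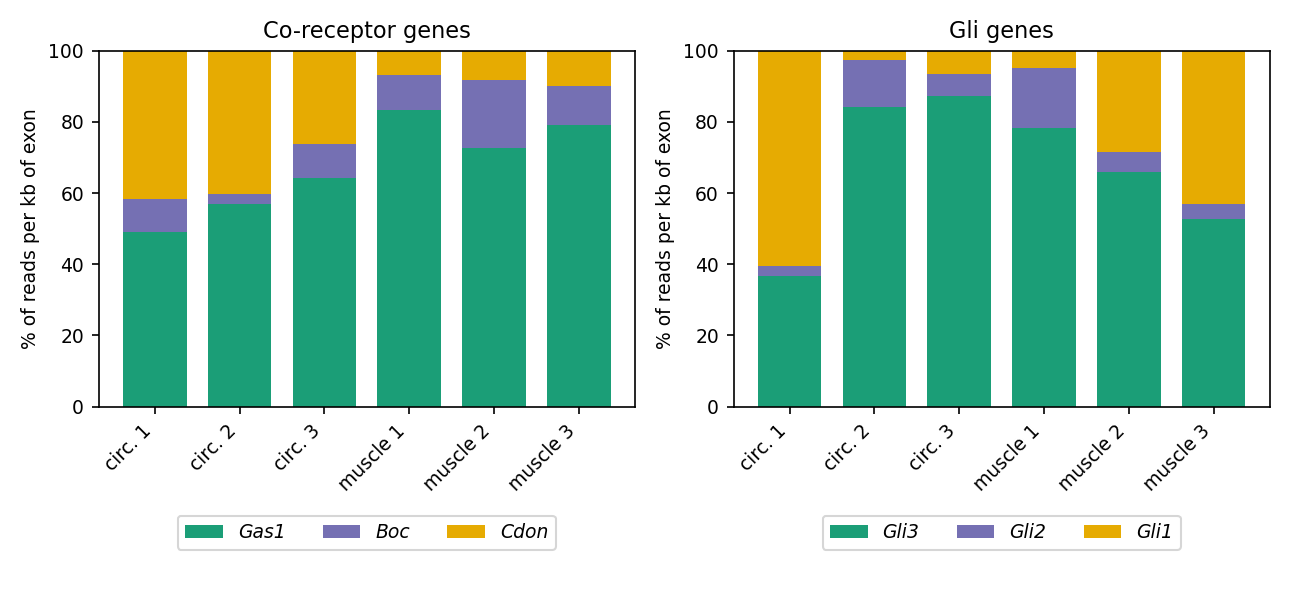
Percent of reads per kilobase of exon for the 3 co-receptor genes (left panel) and the 3 Gli genes (right panel) in each library, circulating libraries first. Gas1 takes 49.0% to 64.4% of co-receptor reads in circulating and 72.7% to 83.3% in muscle libraries, and the Gli1 share lies between 2.59% and 60.6% in circulating and between 4.80% and 43.2% in muscle libraries.

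Ptch1, the receptor, was at 18.6, 5.19 and 34.8 CPM in circulating libraries 1, 2 and 3, against 7.77, 12.5 and 10.5 CPM in muscle libraries 1, 2 and 3. The circulating libraries lay on both sides of the muscle libraries, and the log2 fold change of 0.93 ± 0.76 was little more than its error. Hhip, which binds the ligand at the cell surface and holds it from the receptor, was at 7.59, 8.65 and 4.17 CPM in circulating libraries 1, 2 and 3, against 11.7, 14.2 and 15.4 CPM in muscle libraries 1, 2 and 3. The groups did not overlap, but the fold change was small (-1.01 ± 0.63) and came to -0.29 with scaling on abundant genes. Smo, the transducer, was at 20.4, 9.85 and 13.4 CPM in circulating libraries 1, 2 and 3, against 19.7, 23.8 and 22.2 CPM in muscle libraries 1, 2 and 3. Its groups overlapped, and its log2 fold change of -0.59 ± 0.62 turned to 0.07 with scaling on abundant genes.

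Among the transcription factors, Gli3, which acts mainly as a repressor when no ligand is present, was at 27.8, 16.6 and 17.2 CPM in circulating libraries 1, 2 and 3, against 56.1, 62.4 and 52.9 CPM in muscle libraries 1, 2 and 3. The groups did not overlap, and the log2 fold change was -1.47 ± 0.54, or -0.80 with scaling on abundant genes. Gli2, the main activator in many tissues, was at 1.53, 1.86 and 0.878 CPM in circulating libraries 1, 2 and 3, from 21, 14 and 8 reads, against 8.72, 3.81 and 3.03 CPM in muscle libraries 1, 2 and 3 (-1.86 ± 0.63). Here too the circulating libraries all lay under the muscle libraries.

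Gli1, an activator and a target of the pathway, varied more within the groups than between them. It was at 23.9, 0.266 and 0.659 CPM in circulating libraries 1, 2 and 3, from 328, 2 and 6 reads, against 1.79, 14.1 and 22.6 CPM in muscle libraries 1, 2 and 3, from 30, 278 and 463 reads. Exact 95% Poisson intervals, which cover counting error alone, ran from 21.4 to 26.7 CPM in circulating replicate 1, from 0.0322 to 0.962 CPM in circulating replicate 2 and from 0.242 to 1.43 CPM in circulating replicate 3. In muscle replicate 1 the interval ran from 1.21 to 2.56 CPM, and in muscle replicate 3 from 20.6 to 24.8 CPM. The intervals of circulating replicates 2 and 3 overlapped each other, and that of circulating replicate 1 lay apart from both. The log2 fold change was -0.62 ± 1.38, and -4.82 without circulating replicate 1. The receptor gene Ptch1, also a target, did not share this order and was highest in circulating replicate 3, where Gli1 had 6 reads.

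**Figure D3:**
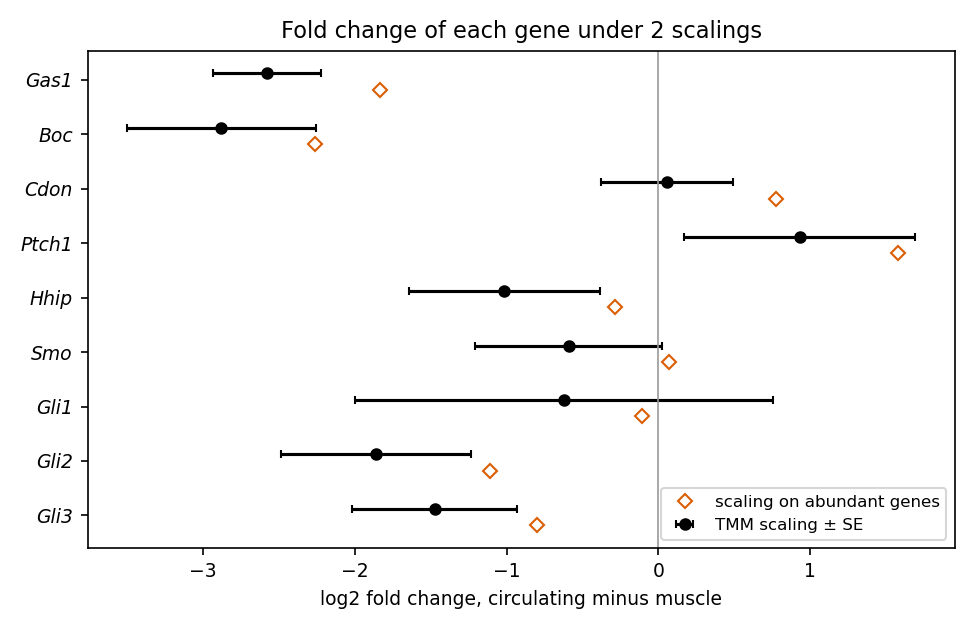
Log2 fold change, circulating minus muscle, of each gene with TMM scaling (black points, bars are SE) and with scaling on abundant genes (open orange diamonds). Gas1 and Boc lie lowest under both scalings, and Smo changes sign between them, from -0.59 to 0.07.

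By count, 1 of the 9 genes, Gas1, passed in edgeR, where 0.104% of all tested genes were called lower and 0.109% were called in either direction. DESeq2 called 3 of the 9 lower (Gas1, Boc and Gli3), where it called 7.08% of genes lower. In 5 of the 9 (Gas1, Boc, Hhip, Gli2 and Gli3) every circulating library lay under every muscle library, as in 11.4% of all tested genes. Log2 fold changes were negative in 7 of 9 under TMM, where 45.5% of all tested genes were negative. With scaling on abundant genes 6 of the 9 were negative, and the share of all tested genes was not counted under that scaling. Their median was -1.01, or -0.29 with scaling on abundant genes, against 0.15 and 0.85 over all tested genes and -0.65 and 0.07 over the 4736 genes with a mean of at least 20 CPM. As the genes were chosen on this contrast, nothing is read from these counts.

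Levels between genes were compared per kilobase of exon, with lengths from GENCODE M21. In circulating FAPs the order was Gas1 (27.6 ± 1.83 CPM per kilobase), Cdon (18.1 ± 6.59), Boc (3.60 ± 2.14), Smo (2.59 ± 0.951), Gli3 (2.14 ± 0.655), Gli1 (1.66 ± 2.71), Ptch1 (1.38 ± 1.05), Hhip (0.750 ± 0.258) and Gli2 (0.207 ± 0.0730). Neighbours from Boc to Hhip overlapped in their ranges over the 3 libraries. Cdon stood clear of Boc, and Gli2, the last, lay clear below Hhip. Gas1 stood clear of Cdon by a small margin, with its lowest library at 25.5 and the highest of Cdon at 24.7. In muscle FAPs the order was Gas1 (164 ± 35.5), Boc (26.5 ± 5.24), Cdon (17.4 ± 4.61), Gli3 (5.96 ± 0.507), Smo (3.90 ± 0.367), Gli1 (2.57 ± 2.10), Hhip (1.51 ± 0.205), Gli2 (0.755 ± 0.449) and Ptch1 (0.723 ± 0.169). There the pairs Boc and Cdon, Smo and Gli1, Gli1 and Hhip, and Gli2 and Ptch1 overlapped. Per kilobase, Gas1 was thus the most abundant of the 9 transcripts in both groups, with Cdon next in circulating and Boc next in muscle FAPs. In circulating FAPs the first place rests on the division by exon length (2961 bases for Gas1 and 7715 for Cdon). Before it, Cdon lay above Gas1 in all 3 circulating libraries, at 190, 139 and 88.8 against 85.8, 75.5 and 83.5 CPM.

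Low levels were read against stray reads, taken as the pooled reads per kilobase over 379 genes of vomeronasal, taste and trace amine receptors, whose expression is held to sensory organs. This level was 0.529, 0.627 and 0.468 CPM per kilobase in circulating libraries 1, 2 and 3, against 0.316, 0.321 and 0.243 in muscle libraries 1, 2 and 3, so stray reads were higher in the circulating libraries. Gas1 stood at 54.8, 40.6 and 60.3 times this level in the circulating libraries and at 597, 385 and 746 times in the muscle libraries. Boc stood at 10.3, 2.003 and 8.76 times in the circulating and at 70.2, 101 and 103 times in the muscle libraries. Gli2 did not exceed stray reads in any circulating library (0.422, 0.433 and 0.273 times), while it stood at 4.02, 1.73 and 1.82 times in the muscle libraries. Gli1 stood at 9.06 times in circulating replicate 1 and at 0.0850 and 0.282 times in circulating replicates 2 and 3, against 1.14, 8.80 and 18.7 times in muscle libraries 1, 2 and 3. Hhip was at 0.983 to 1.58 times in circulating and 4.09 to 6.97 times in muscle libraries, and Ptch1 at 0.584 to 5.25 times in circulating and 1.74 to 3.04 times in muscle libraries. Gli2 in the circulating libraries, Gli1 in circulating replicates 2 and 3 and Ptch1 in circulating replicate 2 were therefore not detectable above stray reads, and Hhip in the circulating libraries lay near that level. Gli1 in muscle replicate 1 (1.14 times) also lay near it. Gli2 in muscle replicates 2 and 3 (1.73 and 1.82 times) and Ptch1 in muscle replicate 1 (1.74 times) were not far above it.

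**Figure D4:**
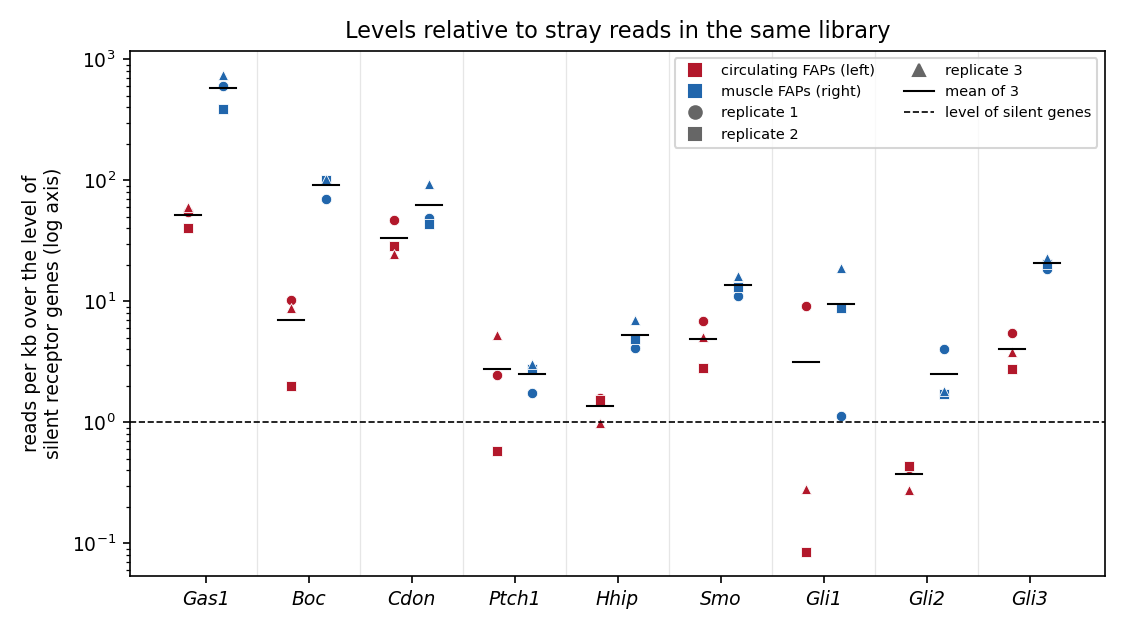
Reads per kilobase of each gene divided by that of 379 silent receptor genes in the same library, on a log axis, with circulating libraries on the left and muscle libraries on the right of each gene and the dashed line at the level of silent genes. Gas1 stands at 40.6 to 60.3 times the line in circulating and 385 to 746 times in muscle libraries, and Gli2 lies under the line in all 3 circulating libraries.

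The rest of the pathway was followed in 9 lists of 122 further genes, of which 114 were tested. None passed in edgeR, while 24 had an unadjusted p under 0.05, 19 lower and 5 higher in circulating FAPs. Of all tested genes 19.4% had such a p, 9.64% lower and 9.71% higher. The total of 24 of 114 is thus near the background, while its split leans more to lower than that of all genes. Direction went with level in these libraries. The median log2 fold change was -0.65 over genes with a mean of at least 20 CPM and 0.45 over those under 20 CPM. The part of level in the split of the 114 was not tested. With scaling on abundant genes, a new count over the 114 gave 8 lower and 15 higher, against 621 lower and 5342 higher over all tested genes. DESeq2 called 11 lower and none higher, where it called 7.08% and 1.34% of genes. Ligand transcripts were scarce. Shh had 0 to 6 reads in each library, and Ihh had 6, 2 and 0 reads in circulating libraries 1, 2 and 3, against 1, 8 and 34 in muscle libraries 1, 2 and 3. Dhh, the ligand that Schwann cells make in nerve, had 13, 6 and 0 reads in circulating libraries 1, 2 and 3, against 12, 32 and 14 reads in muscle libraries 1, 2 and 3, and was the ligand tested (-0.76 ± 0.93, edgeR adjusted p = 0.648). The Schwann cell markers summed to between 13.7 and 45.1 CPM in circulating and between 25.8 and 63.1 CPM in muscle libraries. Of 5 tested genes for ligand processing and release, none passed in edgeR, 1 had an unadjusted p under 0.05 and DESeq2 called none. The most abundant was Disp1, which frees the lipid-bearing ligand from the cell that makes it, at 17.4 ± 7.52 CPM in circulating libraries and 10.1 ± 1.58 CPM in muscle libraries (0.78 ± 0.64, edgeR adjusted p = 0.493).

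Of 8 other surface proteins that bind ligand or control Smo, none passed in edgeR. In 3 the unadjusted p was under 0.05, all lower, where 9.64% of all tested genes were lower with such a p. DESeq2 called 2 lower, among them Gpc4, a glypican, where it called 7.08% of genes lower. The most abundant of this list was Gpc3, a glypican that competes with Ptch1 for ligand, at 81.7 ± 10.4 CPM in circulating libraries and 169 ± 41.8 CPM in muscle libraries (-1.05 ± 0.41, edgeR adjusted p = 0.216). The median of the list was -0.02, or 0.67 with scaling on abundant genes.

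Intracellular transducers and the cilium showed no called difference in edgeR. Of 21 transducers 2 had an unadjusted p under 0.05, a smaller share than the 19.4% of all tested genes, and DESeq2 called Csnk1a1 lower, a kinase that helps mark Gli proteins for processing, at 123 ± 69.9 CPM in circulating libraries and 381 ± 48.3 CPM in muscle libraries (-1.63 ± 0.45, adjusted p = 0.156 in edgeR and 0.0454 in DESeq2). Sufu, the inhibitor that holds Gli proteins in the cytoplasm, was at 12.6 ± 15.0 CPM in circulating libraries and 11.9 ± 1.95 CPM in muscle libraries, and its circulating mean rested on replicate 3 at 29.9 CPM. Of 43 genes of the primary cilium 5 had such a p, also a smaller share, and DESeq2 called Bbs5, a subunit of the BBSome, lower. Ift20, an intraflagellar transport protein and the most abundant of the list, was at 114 ± 76.8 CPM in circulating libraries and 158 ± 26.3 CPM in muscle libraries (-0.48 ± 0.54, or 0.21 with scaling on abundant genes, edgeR adjusted p = 0.618). Medians were -0.22 for the transducers and -0.35 for the cilium, and both turned positive with scaling on abundant genes, at 0.47 and 0.32.

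Genes reported as Hedgehog targets in some tissue had 15 of 18 members tested. None passed in edgeR, and 7 had an unadjusted p under 0.05, all lower, where 9.64% of all tested genes were lower with such a p. DESeq2 called 5 lower, where it called 7.08% of genes lower. Among the 5 were Sox9, Sfrp1, Pthlh and Snai1, each named here after its values were seen. Sox9, a transcription factor of cartilage and tendon progenitors, was at 5.69, 5.06 and 7.69 CPM in circulating libraries 1, 2 and 3, against 87.6, 31.0 and 98.7 CPM in muscle libraries 1, 2 and 3. The groups were far apart (-3.56 ± 0.67, adjusted p = 0.0838 in edgeR). The 3 tenocyte markers summed to between 19.2 and 45.1 CPM in circulating and between 43.5 and 59.1 CPM in muscle libraries, but they went both ways. Tnmd was lower in circulating libraries (mean 14.7 against 43.7 CPM) and Mkx higher (14.4 against 1.77), each without overlap. Scx (3.30 against 7.78) overlapped between the groups. The part of tenocytes in the Sox9 values was not tested. Sfrp1, a secreted Wnt antagonist, was at 2.63, 1.06 and 3.08 CPM in circulating libraries 1, 2 and 3, against 41.2, 9.44 and 69.6 CPM in muscle libraries 1, 2 and 3 (-4.14 ± 0.91, adjusted p = 0.118 in edgeR). Ccnd2, a cyclin of the G1 phase and the most abundant of the list, was at 60.4 ± 9.76 CPM in circulating libraries and 122 ± 7.31 CPM in muscle libraries (-1.01 ± 0.42, edgeR adjusted p = 0.231). Timp3, a metalloproteinase inhibitor that Hedgehog signalling is known to raise in mouse FAPs, was at 21.5 ± 2.25 CPM in circulating libraries and 33.3 ± 17.3 CPM in muscle libraries (-0.63 ± 0.62, edgeR adjusted p = 0.570), and turned to 0.13 with scaling on abundant genes. In 9 of the 15 every circulating library lay under every muscle library, as in 11.4% of all tested genes. The median of the 15 was -1.29, or -0.57 with scaling on abundant genes. Over all genes with a mean of at least 20 CPM it was -0.65 and 0.07, and over those under 20 CPM 0.45 and 1.15.

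**Figure D5:**
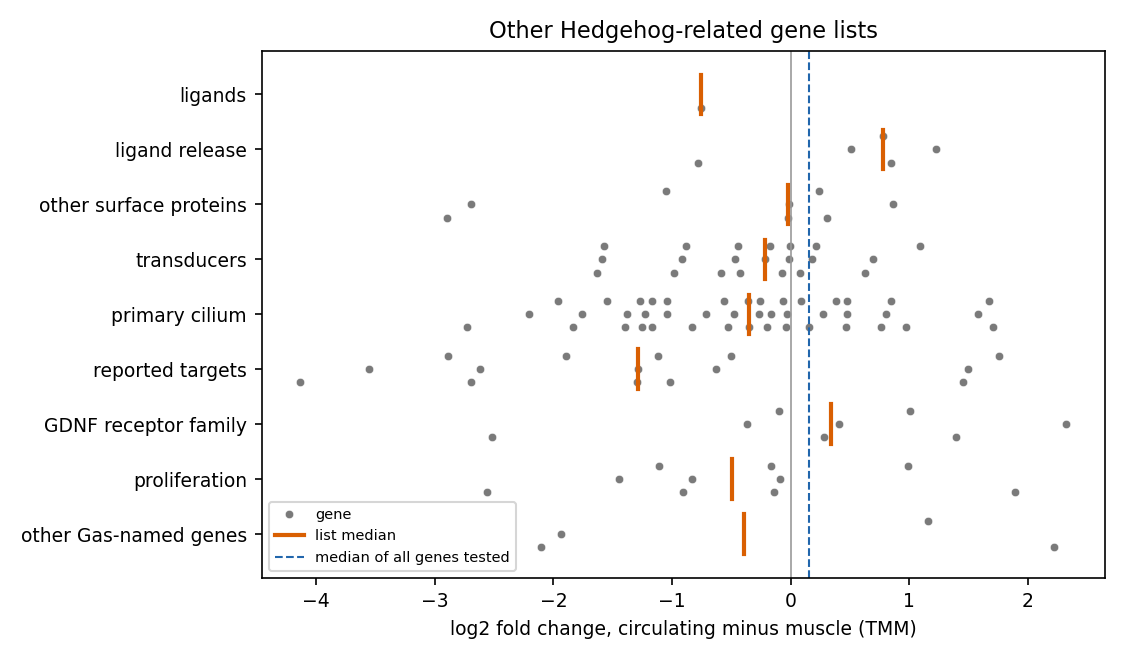
Log2 fold change, circulating minus muscle, of each tested gene (grey points) in the 9 further lists, with list medians (orange bars) and the median of all tested genes (dashed line at 0.15). Medians run from -1.29 for the reported targets to 0.78 for ligand processing and release.

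Relatives and namesakes of Gas1 were also followed. Gas1 resembles the GDNF receptors in its extracellular part, and of that family and its ligands 8 of 10 genes were tested. None passed in edgeR, 1 lower and 2 higher had an unadjusted p under 0.05 (19.4% of all tested genes) and DESeq2 called none. The most abundant was Ret, the shared kinase of these receptors, at 60.6, 59.0 and 10.5 CPM in circulating libraries 1, 2 and 3, against 52.8, 41.3 and 74.2 CPM in muscle libraries 1, 2 and 3. Circulating replicate 3 stood apart, and the groups overlapped (-0.37 ± 0.68, edgeR adjusted p = 0.766), and the sign turned with scaling on abundant genes (0.38). Of the 8, 5 had a positive log2 fold change, and the median was 0.34, or 1.07 with scaling on abundant genes. In 2 of the 8, Gdnf, a ligand of the family, and Gfra3, one of its receptors, every circulating library lay above every muscle library, as in 16.2% of all tested genes. Both are named after their values were seen. Gdnf was at 2.19, 4.79 and 0.878 CPM in circulating libraries 1, 2 and 3, from 30, 36 and 8 reads, against 0.120, 0.711 and 0.684 CPM in muscle libraries 1, 2 and 3, from 2, 14 and 14 reads (2.33 ± 0.79, edgeR adjusted p = 0.190). Gfra3 was at 1.53, 1.46 and 3.29 CPM in circulating libraries 1, 2 and 3, from 21, 11 and 30 reads, against 0.777, 0.914 and 0.684 CPM in muscle libraries 1, 2 and 3, from 13, 18 and 14 reads (1.39 ± 0.57, edgeR adjusted p = 0.226). Both genes have few reads over 3674 (Gdnf) and 1997 (Gfra3) bases of exon. Stray reads were higher in circulating libraries (0.468 to 0.627 CPM per kilobase) than in muscle libraries (0.243 to 0.321). Their part in the values of Gdnf and Gfra3 was not tested. Gas5, a non-coding RNA, and Gas6, a ligand of TAM receptors, share a name with Gas1 and no sequence family. Gas6 was at 41.5 ± 2.98 CPM in circulating libraries and 179 ± 45.8 CPM in muscle libraries (-2.10 ± 0.43, adjusted p = 0.0909 in edgeR and 0.00144 in DESeq2). Gas5 was at 273 ± 136 CPM in circulating libraries and 1044 ± 136 CPM in muscle libraries (-1.94 ± 0.39, adjusted p = 0.0909 in edgeR and 0.0102 in DESeq2). The other 2 namesakes, Gas2 and Gas7, had positive values, and their groups overlapped. Gas2 was at 4.38, 35.9 and 5.60 CPM in circulating libraries 1, 2 and 3, against 3.58, 4.82 and 1.42 CPM in muscle libraries 1, 2 and 3, with circulating replicate 2 far above the rest (2.22 ± 0.94, edgeR adjusted p = 0.237). Gas7 was at 14.0 ± 5.58 CPM in circulating libraries and 6.26 ± 2.25 CPM in muscle libraries (1.16 ± 0.65, edgeR adjusted p = 0.341). Of the 4, none passed in edgeR, and 2 lower and 1 higher had an unadjusted p under 0.05, where 9.64% and 9.71% of all tested genes did.

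Proliferation genes were followed because Gas1 is known to block entry into S phase in mouse fibroblasts. Of 10 tested, none passed in edgeR and 1 had an unadjusted p under 0.05, where 19.4% of all tested genes had such a p. DESeq2 called Rrm2 lower, where it called 7.08% of genes lower. Pcna, the most abundant, was at 42.1, 5.59 and 9.11 CPM in circulating libraries 1, 2 and 3, against 63.9, 33.7 and 57.6 CPM in muscle libraries 1, 2 and 3, and the groups overlapped (-1.45 ± 0.79, edgeR adjusted p = 0.329). The median of the list was -0.50, or 0.24 with scaling on abundant genes.

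The genes whose profile over the 6 libraries was most like that of Gas1 were found by Euclidean distance between log2(CPM + 0.5) values, each gene centred on its own mean, among 4683 other genes with a mean of at least 20 CPM, with 52 provisional symbols (Gm or Rik names) left out. They were Gnaq, a G protein alpha subunit (distance 0.326), Ccng2, an atypical cyclin found in cells that leave the cycle (0.468), Emp1, a tetraspan membrane protein (0.518), Irgm1, an interferon-induced GTPase (0.525), and Ank2, an ankyrin (0.544). Gnaq was at 21.4, 14.2 and 17.0 CPM in circulating libraries 1, 2 and 3, against 119, 88.1 and 124 CPM in muscle libraries 1, 2 and 3, with muscle replicate 2 the lowest of its group as for Gas1. Of the other Hedgehog genes at that level, Gli3 stood at place 338 (distance 1.52), Boc at place 540 (1.74) and Cdon at place 3335 (3.27). This measure is mostly the difference between the groups and describes these libraries.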

How the data were processed

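RNA-seq counts of 3 circulating and 3 muscle FAP libraries were analysed. The authors deposited raw counts of reads per gene symbol in 1 table; Trim Galore, STAR, featureCounts and build GRCm39 are named per the submitters' processing notes, with versions, annotation and strand setting not given in the sources used here, so reads of overlapping or antisense genes cannot be told apart. Per the labels' protocols, libraries were made with a transposase kit. Samples were grouped by title. Replicates of a group differed far beyond sampling noise (chi-square per degree of freedom 56.1 to 85.4). As no label says that replicates came from separate mice, p-values measure only the spread between these libraries, which may be technical.

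Counts were tested with edgeR 4.0.16 in R 4.3.3 (filterByExpr, TMM, robust quasi-likelihood F test, Benjamini-Hochberg adjustment over 20248 genes, threshold 0.05), with DESeq2 1.42.0 as an alternative. A fold change is log2, circulating minus muscle, and its SE is the coefficient over the square root of F. The steps were tested on simulated counts. Titles share replicate numbers, but deviations of same-numbered libraries were uncorrelated (r = 0.009, 0.034 and 0.004 over genes), so no pairing was used.

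Exon lengths were the union of exons per symbol in GENCODE M21 (build GRCm38, matched for 91.4% of symbols), which makes genes with many isoforms look less abundant. Promoters came from RefSeq. Other settings were 5 scalings, 2 filters, DESeq2, a replicate block, 18S left out and each library left out.

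The genes, lists and tests were chosen with earlier results of these data known. Named genes were the 9, from each further list up to 3 genes past the threshold or else the most abundant, and the 5 genes most like Gas1; the other genes, and the Gas1 and Cdon promoters, were chosen after their values were seen. The values of 1 gene of the further lists are not reported here.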

Additional observations from a re-analysis of the deposited data

How the results depend on the processing

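Of 143 values of the 9 genes under the alternatives, 123 moved by less than the spread between replicates and 20 moved by more. This spread, the pooled SD of log2 CPM, was 0.247 for Gas1 but 1.02 for Ptch1 and 2.74 for Gli1, where only a large move could exceed it. Gas1, the only called gene, kept its sign in all 17 settings. Cdon was negative in 8 settings and positive in 9, Smo in 15 and 2, and Gli1 in 16 and 1. Upper quartile scaling gave log2 fold changes of -1.88 for Gas1, 0.059 for Smo, -0.82 for Gli3, -0.32 for Hhip and 0.74 for Cdon. Scaling on abundant genes gave -1.84 for Gas1, 0.073 for Smo, -1.11 for Gli2, -0.80 for Gli3, -0.29 for Hhip and 0.77 for Cdon. The stricter filter (5 CPM in at least 3 libraries), under which Gli2 was not tested, gave -1.99 for Gas1, -0.048 for Smo, -0.93 for Gli3, -0.43 for Hhip and 0.63 for Cdon. With each library left out in turn Smo ran from -0.98 to -0.47, Gli1 from -4.82 to 0.033 and Gli3 from -1.82 to -1.4, in each case lowest without circulating replicate 1. With the replicate block Gli1 was at -3.37, and 1 gene was lower and 0 higher, none of them among the 9; Gas1 had adjusted p = 0.0801 in edgeR, within its range of 3.48e-05 to 0.202 over all settings.

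The 21 lower and 1 higher genes became 42 lower and 1 higher with RLE size factors, 1 lower and 1 higher with upper quartile scaling, 4 lower and 3 higher with scaling on abundant genes, 28 lower and 2 higher with library size, 154 lower and 6 higher with no filter, 21 lower and 5 higher with the stricter filter, and 1078 lower and 204 higher with DESeq2. With each library left out they ran from 0 to 63 lower and from 0 to 2 higher, with 63 without circulating replicate 1 and 0 or 1 without any other library. The 1 lower gene among the 9 became 0 with upper quartile scaling or scaling on abundant genes and 0 with the replicate block, 2 with no filter and 3 with DESeq2, and ran from 0 to 1 with each library left out. In the further lists, no filter gave 2 lower targets and 2 lower Gas namesakes, and DESeq2 gave 2 lower surface proteins, 1 transducer, 1 cilium gene, 5 targets, 1 proliferation gene and 2 namesakes, where the main count was 0; the namesakes ran from 0 to 1 with each library left out. The cause of these changes was not tested. Gli2 with 8 to 21 reads and Gli1 with 2 and 6 reads in circulating libraries rest on little depth.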
